A study of Mus musculus with 18 samples.

Results

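Primary microglia labelled as carrying 1 Ripk1 D138N allele on top of the Tbk1+/- and Tak1ΔM/+ alleles were compared with microglia labelled with the Tbk1+/- and Tak1ΔM/+ alleles alone. All libraries of the 2 genotypes were taken by label, which gave 3 libraries of Tbk1+/-;Tak1ΔM/+;Ripk1 D138N/+ (called the triple libraries) and 3 of Tbk1+/-;Tak1ΔM/+ (called the double libraries), or 6 of the 18 libraries of the series. Both groups were labelled as C57BL/6 and as heterozygous for Tbk1 and for the Tak1 allele, so the labelled difference was the single D138N allele. The Tbk1 level of the 3 libraries labelled triple went against their Tbk1+/- label, as given below, so they are named throughout by their label, not by a genotype that the counts bear out. The cells came from forebrains of pups at postnatal day 2, which were kept in culture for 7 days, given new medium and kept for 7 more before the microglia were shaken off and collected. Wild-type (WT) and Tak1ΔM/+ libraries, 3 of each, served for levels, and 3 Tbk1+/- and 3 Tbk1+/-;Ripk1 D138N/D138N libraries for levels and for a second D138N contrast. The sources used here give neither the Cre line nor the cell type behind the ΔM allele, nor the sex of the pups, nor whether replicates were separate animals or cultures, so p-values measure the spread between libraries, which may be technical.

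RIPK1 is a kinase that sits downstream of the TNF receptor. It has a scaffold role that feeds NF-kB signalling and a kinase activity that can drive apoptosis through caspase-8 or necroptosis through RIPK3 and MLKL. D138N replaces a catalytic residue, so that the protein is made without kinase activity. TBK1 and TAK1 (encoded by Map3k7) both phosphorylate RIPK1 or its partners and hold the kinase in check, and TBK1 also activates IRF3 and so the production of type I interferon. Interferon that is bound by its receptor induces a large set of antiviral genes.

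Expression is given as CPM, the counts scaled to a common total of 1e+06 after a TMM correction (trimmed mean of M values) for library composition. Of 13447 genes tested, 344 (2.56%) differed between the triple and the double libraries at an adjusted p under 0.05 by edgeR's quasi-likelihood test with Benjamini-Hochberg adjustment, and these are the called genes. Higher expression in the triple libraries was called for 257 genes (1.91%) and lower expression for 87 (0.647%). The median log2 fold change over all tested genes was 0.0025. Of the 15 called higher genes with the largest changes 11 belonged to a list of mitosis genes, and Arg1 and S100a4 stood at their head. Of the 15 lower genes with the largest changes under the same rule 13 belonged to a list of type I interferon response genes. Leaving out 1 library gave between 106 and 476 calls, with 106 without double replicate 1, 124 without double replicate 2, 107 without triple replicate 2, 114 without triple replicate 3 and 168 without double replicate 3.

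The genotype labels were first checked against the genes they name, and the triple libraries went against theirs for Tbk1. Tbk1 (ENSMUSG00000020115, GRCm38 chromosome 10, 121546455 to 121586787) was at 55.1, 56.4 and 66.0 CPM in the double libraries and at 123, 107 and 115 CPM in the libraries labelled triple. The WT mean was 119 ± 25.6 CPM (SD, n = 3) and the Tbk1+/- mean 57.7 ± 7.55 CPM (SD, n = 3). All 3 libraries labelled triple thus lay within the WT range of 104 to 149 CPM, although their label gives 1 wild-type Tbk1 allele. The log2 difference between triple and double libraries was 0.96 ± 0.25 (SE), with an adjusted p of 0.0454 that ranged from 0.0782 to 0.18 when any 1 of the 6 libraries was left out. Because every library labelled triple showed this level, no fit without them can be made, and each direction given here holds for the libraries as labelled.

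Lyz2, which encodes lysozyme and is the site into which a widely used myeloid Cre is inserted, differed more strongly. It was at 7999.8, 8114 and 8923 CPM in the double libraries and at 40695, 38289 and 42594 CPM in the triple libraries, with a WT mean of 37149 ± 2162 CPM (SD, n = 3). The groups did not overlap, the log2 fold change was 2.28 ± 0.21 (SE) and the adjusted p was 1.77e-05. The Tak1ΔM/+ libraries, which were labelled with the same Tak1 allele and wild-type Tbk1, had 18291 ± 4082 CPM (SD, n = 3). Whether the Tak1 allele or its driver has a part in the Lyz2 level was not tested.

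Counts cannot show the D138N change itself. Ripk1 (chromosome 13, 34002363 to 34037147) was at 49.0, 55.8 and 71.0 CPM in the double libraries and at 62.0, 23.1 and 26.2 CPM in the triple libraries, and the groups overlapped (log2 fold change -0.66 ± 0.43, adjusted p = 0.50). Map3k7 (chromosome 4, 31964097 to 32023467) was low in both groups, at 15.8, 11.4 and 6.57 CPM in the double and 10.2, 11.6 and 7.00 CPM in the triple libraries (log2 fold change -0.23 ± 0.33, adjusted p = 0.81).

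**Figure D1:**
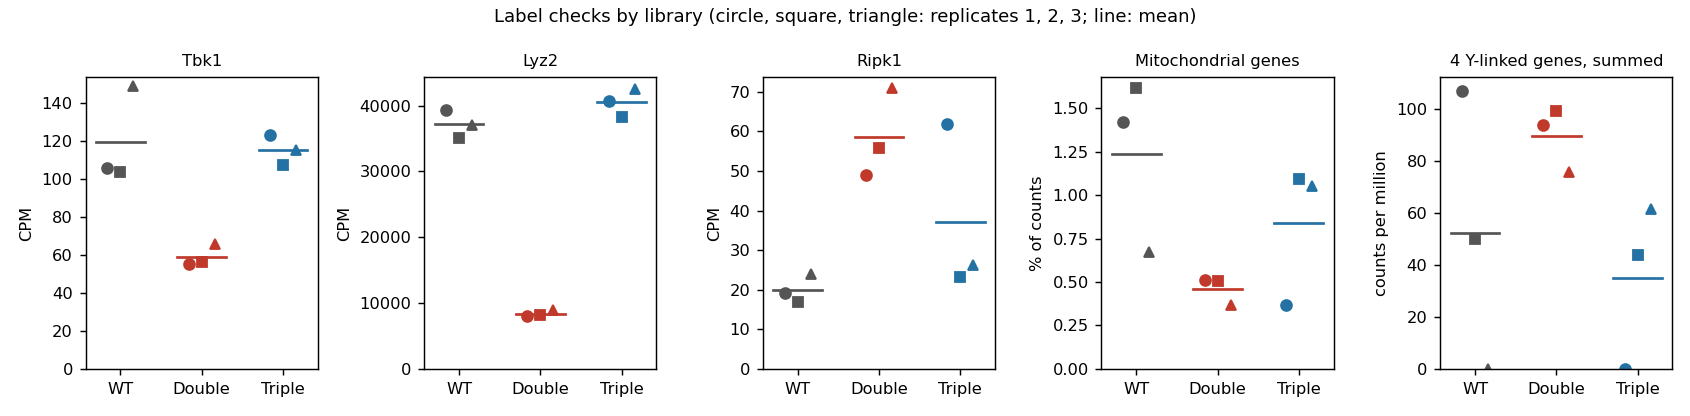
Tbk1, Lyz2 and Ripk1 in CPM, the share of counts from mitochondrially encoded genes in percent and the summed scaled counts of 4 Y-linked genes, for the WT, double and triple libraries (3 of each; line, mean). Tbk1 and Lyz2 in the libraries labelled triple sit at the WT level and above all double libraries, and triple replicate 1 has no Y-linked counts and a low mitochondrial share.

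Library totals ran from 8016559 to 18020929 counts in the double and from 14290775 to 22989116 in the triple libraries. Triple replicate 1 stood apart from the other 2 triple libraries. Its mitochondrially encoded share was 0.370% against 1.10% and 1.05%, and its 4 Y-linked genes summed to 0 against 43.7 and 61.5 counts in 1e+06, whereas the double libraries had shares of 0.367% to 0.512% and Y-linked sums of 75.9 to 99.5. Xist, the X-linked RNA of female cells, was at 158 counts in 1e+06 in triple replicate 1 and at 55.4 and 54.8 in triple replicates 2 and 3. In the double libraries it was at 76.1 to 97.0, so all but triple replicate 1 had both Xist and Y-linked counts. The part of sex in the results was not tested. Without triple replicate 1 the count of calls was 476, of which 293 were among the 344. A fit on the 8 libraries of the series with a mitochondrial share under 0.8%, in which triple replicate 1 was the single triple library and was assumed to vary like the other groups, gave 279 calls, of which 142 were among the 344. The double libraries were alike: their coefficient of biological variation was 0.217 against 0.352 in the triple group. In the other genotypes it was 0.333 to 0.404, so the low value of the double group was the exception. Each of 12 markers of microglia and macrophages was detected in every one of the 6 libraries, the lowest being Itgam at 41.3 CPM in double replicate 3. Their sum was 18734 to 20668 CPM in the double and 50590 to 55785 CPM in the triple libraries, and 10620 to 11744 against 12302 to 13191 CPM without Lyz2. Of the 12, Lyz2, Itgam and Cx3cr1 were called higher and none lower, against 1.91% and 0.647% of all genes. The Cx3cr1 call was lost in all 6 fits that left out 1 library and the Itgam call in 5, while Lyz2 kept its call. Markers of other cells summed to 31.1 to 41.6 against 32.3 to 70.0 counts in 1e+06 for astrocytes (double, then triple), 187 to 191 against 127 to 174 for the oligodendrocyte lineage (Mog and Gpr17 at 0), 8.44 to 10.2 against 3.78 to 16.8 for neurons (Nefm at 0), 1463 to 1527 against 1081 to 1517 for border macrophages and monocytes, and 0.555 to 1.25 against 1.77 to 3.71 for other blood cells (9 of 14 markers at 0). The fibroblast, mural and endothelial markers summed to 96.9 to 125.5 counts in 1e+06 in the double and 174.6 to 452.8 in the triple libraries (Rgs5 at 0), mostly through Fn1, and the part of these cells in the results was not tested. In bulk RNA, fewer cells of a type and less RNA per cell cannot be told apart.

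Interferon response genes were lower in the triple libraries. Of 59 tested members of the type I interferon list (60 listed), 28 fell and none rose, against 0.647% and 1.91% of all genes, and the median log2 fold change was -1.21. The log2 change lay below 0 for 58 members, against 49.7% of all genes, and for 54 the 3 triple libraries all lay below the 3 double libraries, which 11.4% of all tested genes did. Leaving out triple replicate 2 left 17 members called, and leaving out any other of the 6 libraries 19 to 28.

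A feature of part of these genes can be read in their upstream sequence. The interferon-stimulated response element, searched on both strands as GAAA, any 2 bases and GAAA again, was in 23 of 45 members with a promoter in RefSeq (GRCm38.p6), in windows from 250 bases before to 50 after the start, and in 12 of the 20 called members matched. It occurred in 46.3% of the members' 54 windows and in 3.44% of all 32851 windows. Below are the matches, in capitals, with 20 bases on each side where the window upstream of the start allowed, printed on the gene's strand for genes that fell:
Ifit3, chr19:34583387-34583436, plus strand: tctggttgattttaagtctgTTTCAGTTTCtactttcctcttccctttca
Ifit1, chr19:34640784-34640833, plus strand: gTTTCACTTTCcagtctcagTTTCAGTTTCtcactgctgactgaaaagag
Oas3, chr5:120777705-120777754, minus strand: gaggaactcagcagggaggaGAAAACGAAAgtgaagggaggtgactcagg
Rsad2, chr12:26456543-26456592, minus strand: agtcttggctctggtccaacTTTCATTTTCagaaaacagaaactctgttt
Oas1g, chr5:120887614-120887651, minus strand: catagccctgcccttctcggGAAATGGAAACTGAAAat
The stretch printed for Ifit3 is the same in Ifit3b, letter for letter, so reads of these near-identical neighbours may have been split between them by the counting. A match describes the letters in the window and is not evidence of binding.

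Among the antiviral effectors, Ifit3 (chromosome 19, 34583531 to 34588731), which binds IFIT1 and helps it recognise foreign RNA, was at 80.7, 76.4 and 81.5 CPM in the double and at 10.1, 4.90 and 10.2 CPM in the triple libraries. Its log2 fold change was -3.23 ± 0.56 (SE, adjusted p = 0.00501). The libraries were separated by a wide gap, and a lack of overlap was required by the rule for naming genes by size. Its neighbour Ifit1 had 86.9, 85.8 and 72.0 CPM in the double and 17.02, 12.5 and 14.3 CPM in the triple libraries (log2 fold change -2.48 ± 0.54). Ifit2 had 102.1, 102.0 and 101.7 CPM against 14.9, 22.7 and 18.6 CPM (log2 fold change -2.44 ± 0.59). The Ifit1 call was lost in 4 of the 6 fits that left out 1 library (double replicates 1 and 2, triple replicates 2 and 3; adjusted p up to 0.0937) and the Ifit2 call in all 6 (up to 0.139). The interferon-induced gene Mx1, of the dynamin-like GTPase family, was at 17.8, 13.1 and 20.01 CPM against 1.66, 2.27 and 1.82 CPM (log2 fold change -3.15 ± 0.69). Its call was lost without double replicate 1 or 3 or triple replicate 2 or 3 (adjusted p up to 0.097). Whether its transcript gives an active protein in these mice was not tested.

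Among the oligoadenylate synthetases, which activate RNase L, Oas3, Oas1g and Oas2 fell; they belong to a family of similar genes, among which the counting may have divided reads. Oas3 was at 43.2, 39.4 and 47.2 CPM in the double and at 6.40, 5.12 and 7.84 CPM in the triple libraries, a log2 fold change of -2.74 ± 0.39 (SE), called at an adjusted p of 0.00129 and in every alternative run for it. Oas1g was at 27.1, 26.1 and 25.2 CPM against 7.59, 4.90 and 2.85 CPM (log2 fold change -2.36 ± 0.37), and Oas2 had a log2 fold change of -2.31 ± 0.54, a call lost without any 1 library but triple replicate 1 (adjusted p up to 0.117). Rsad2, or viperin, which makes an antiviral nucleotide, was at 85.8, 83.5 and 78.1 CPM against 7.00, 17.1 and 20.4 CPM (log2 fold change -2.47 ± 0.39, adjusted p = 0.00253). For Oas3, Oas1g and Rsad2 alike, every triple library lay below every double library, which the rule for naming genes by size required.

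Feedback, sensing and cell death genes of the same response moved in the same direction. Usp18, which removes ISG15 from proteins and restrains receptor signalling, was at 29.8, 37.9 and 35.8 CPM in the double and at 8.18, 5.27 and 6.63 CPM in the triple libraries (log2 fold change -2.36 ± 0.35, adjusted p = 0.00145). Zbp1, a sensor of left-handed nucleic acid that can engage RIPK3, was at 22.8, 19.95 and 23.99 CPM against 4.74, 3.66 and 4.90 CPM (log2 fold change -2.32 ± 0.44). Phf11d, an interferon-induced gene, was at 41.8, 49.4 and 34.2 CPM against 6.52, 6.73 and 9.29 CPM (log2 fold change -2.47 ± 0.31, adjusted p = 0.000301). Gbp3, a guanylate-binding protein, was lower by a log2 fold change of -2.30 ± 0.51 at low expression. The Zbp1 call was lost without triple replicate 2 (adjusted p = 0.0528) and the Gbp3 call without double replicate 2 or 3 or triple replicate 2 or 3 (up to 0.104). In each of these genes the 3 triple libraries lay below all double libraries, which the rule for naming genes by size required.

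Of 29 tested genes of nucleic acid sensing and interferon induction, 2 fell and none rose, against 0.647% and 1.91% of all genes. Irf7, the transcription factor that amplifies interferon production, was at 92.6, 91.2 and 88.3 CPM in the double and at 26.1, 27.7 and 26.9 CPM in the triple libraries (log2 fold change -1.75 ± 0.26, adjusted p = 0.00145). Dhx58, which encodes the RIG-I-like receptor LGP2, fell by a log2 change of 1.15, a call lost without any 1 library but triple replicate 1 (adjusted p up to 0.105). The median of this list was -0.08, and both genes that fell are themselves known to be induced by interferon.

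**Figure D2:**
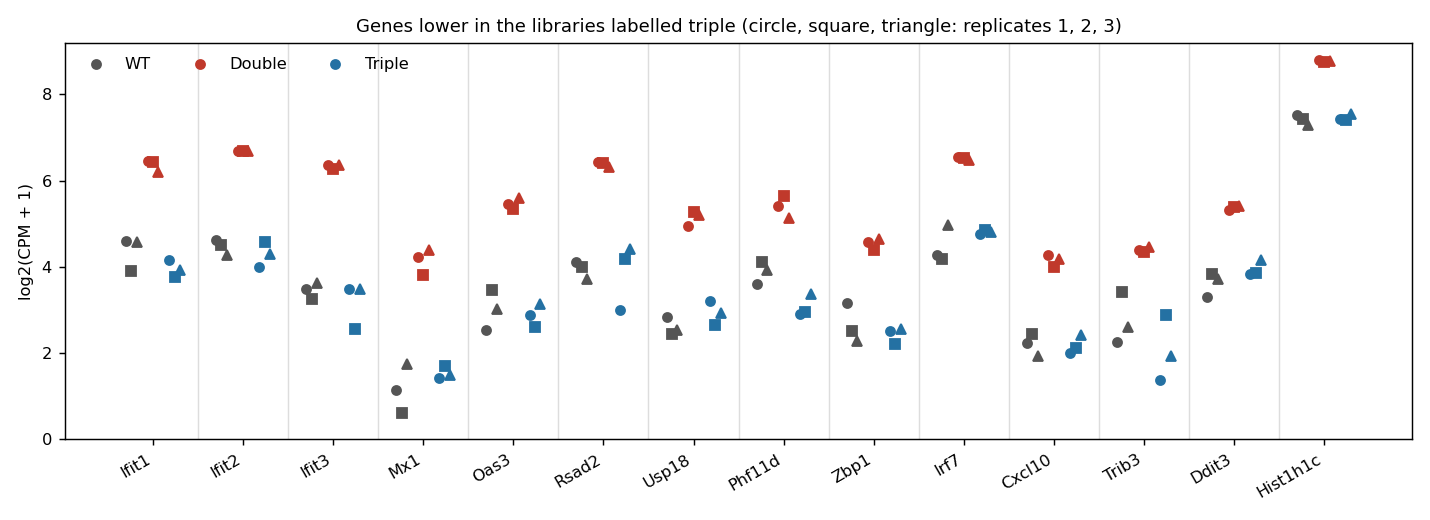
Levels on a log2(CPM + 1) axis for genes called lower in the libraries labelled triple, with 3 libraries each of WT, double and triple (WT, grey; double, red; triple, blue). The double libraries lie above every triple library in each gene shown, which for the genes named by size was a condition of naming.

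In the RIPK1 death complex list, none of 10 genes was called, with log2 changes between -0.50 and 0.72. Of all genes 2.56% were called in either direction, and at that share a list this short would hold few or no calls. Ripk3, which carries the necroptosis signal, was at 7.90, 6.54 and 6.82 CPM in the double and at 14.3, 12.7 and 8.31 CPM in the triple libraries (log2 fold change 0.72 ± 0.42, adjusted p = 0.44). Diablo, which frees caspases from their inhibitors, had a log2 difference of -0.27 ± 0.15 (adjusted p = 0.41). None of 19 intrinsic apoptosis genes was called, beside the same 2.56% of all genes, with a median of 0.0092. In the TNF receptor complex list 1 of 19 fell, against 0.647% of all genes called lower. It was Rnf31, the catalytic subunit of the linear ubiquitin ligase, at 42.1, 41.1 and 32.1 CPM against 22.1, 22.4 and 20.2 CPM (log2 fold change -0.83 ± 0.17, adjusted p = 0.0132). Its call was lost without double replicate 1 or 2 or triple replicate 2 or 3 (adjusted p up to 0.0743).

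Among the 17 kinases that act on RIPK1 and their partners, Tbk1 was called higher and Chuk lower, and 15 were not called. Of all genes, 1.91% were called higher and 0.647% lower. Chuk, which encodes IKK-alpha, was at 56.7, 60.0 and 46.9 CPM in the double and at 28.3, 16.9 and 12.0 CPM in the triple libraries (log2 fold change -1.52 ± 0.34, adjusted p = 0.0199). Here too the call was lost without double replicate 1 or 2 or triple replicate 2 or 3 (adjusted p up to 0.116). Ikbke, a close relative of TBK1, was at 72.2, 70.8 and 78.8 CPM against 81.7, 48.1 and 34.99 CPM, with overlapping groups and an adjusted p of 0.62. Mapk14, or p38-alpha, was at 32.7, 27.95 and 28.6 CPM against 51.9, 44.3 and 51.2 CPM (log2 fold change 0.72 ± 0.20, adjusted p = 0.0631), and its groups did not overlap. The TBK1 adaptors Tank and Azi2 and the TAK1-binding Tab1, Tab2 and Tab3 had log2 differences between 0.01 and 0.51.

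Inflammatory outputs had a single called gene. None of 30 NF-kB target and feedback genes was called (median log2 change -0.15). Of all genes 2.56% were called in either direction, so few or no calls would be found in a list of this size at that share. Of 28 tested cytokines and chemokines only Cxcl10 fell, itself an interferon-induced chemokine, against 0.647% of all genes called lower. Cxcl10 was at 18.4, 14.99 and 17.1 CPM in the double and at 3.02, 3.36 and 4.34 CPM in the triple libraries (log2 fold change -2.23 ± 0.43, adjusted p = 0.00985, or 0.0543 without triple replicate 2). Among p53 targets and GADD45 genes 1 of 23 fell, against the same 0.647% of all genes. That gene, Plk2, a stress-induced kinase, was at 663, 649 and 630 CPM against 295, 280 and 247 CPM (log2 fold change -1.24 ± 0.22, adjusted p = 0.00543) and stayed called whichever of the 6 libraries was left out.

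Of 33 tested ATF4 targets and amino acid supply genes, 3 fell (Trib3, Ddit3 and Aars) and none rose, against 0.647% and 1.91% of all genes. A log2 change below 0 was seen for 30 of the 33, against 6682 of all 13447 genes (49.7%), and the list median was -0.53. Trib3, a pseudokinase induced under stress, was at 19.8, 19.3 and 21.1 CPM in the double and at 1.60, 6.36 and 2.85 CPM in the triple libraries (log2 fold change -2.49 ± 0.56, adjusted p = 0.0199). The 3 double libraries were nearly equal and, as naming by size required, all above the triple ones. Ddit3, the CHOP transcription factor, was at 38.9, 40.9 and 41.7 CPM against 13.2, 13.5 and 16.9 CPM (log2 fold change -1.48 ± 0.28, adjusted p = 0.00824). Aars, an aminoacyl-tRNA synthetase, was at 147, 108 and 164 CPM against 57.5, 90.4 and 73.6 CPM. The Trib3 call was lost without any 1 library but triple replicate 2 (adjusted p up to 0.115), and the Aars call without double replicate 1 or 3 or triple replicate 1 or 3 (up to 0.12), while Ddit3 kept its call. The ATF4 site, searched as TGATGNAA on both strands, was in 10 of 28 members with a RefSeq promoter (2 of the 3 called), or 30.3% of their windows against 3.97% of all windows. In Aars, chr8:111033710-111033757, plus strand, it reads as follows, with the match in capitals:
Aars: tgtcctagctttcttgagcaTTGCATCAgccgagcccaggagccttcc

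Immediate early genes, which respond within minutes to kinase signalling, gave 2 lower calls among 26 (0.647% of all genes were called lower), both for phosphatases that turn off ERK and its relatives. Dusp5 was at 13.3, 20.7 and 15.7 CPM in the double and at 5.16, 1.32 and 2.43 CPM in the triple libraries (log2 fold change -2.47 ± 0.54, adjusted p = 0.019). Dusp1 was at 84.8, 78.1 and 78.1 CPM against 39.3, 31.7 and 39.01 CPM (log2 fold change -1.13 ± 0.21, adjusted p = 0.00824). Neither gene overlapped between the groups, which for Dusp5 the rule for naming genes by size required. The Dusp5 call was lost without any 1 library but triple replicate 1 (adjusted p up to 0.105) and the Dusp1 call without triple replicate 2 (0.0508). Linker histones also fell in 2 of 5 members: Hist1h1c (chromosome 13, 23738808 to 23740367), which encodes histone H1.2, was at 442, 427 and 435 CPM against 171, 169 and 187 CPM (log2 fold change -1.31 ± 0.14, adjusted p = 7.02e-05) and stayed called whichever of the 6 libraries was left out. Hist1h1d had 15, 26 and 38 counts in the double and 0, 0 and 3 counts in the triple libraries, which are too few for a fold change, and its call was lost whichever library was left out.

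Among the genes that rose, cell division was the most populated list. Of 40 mitosis genes tested, 26 rose and none fell, all 40 had a log2 change above 0 and the median was 2.17, against 1.91% of all genes called higher and 50.3% above 0. For 37 the triple libraries all lay above the double ones, which 12.8% of all genes did. The count was sensitive to the tool and the libraries: it was 2 with limma-voom, 13 in the 8 libraries with a low mitochondrial share, and 6, 8 and 14 without double replicates 1, 2 and 3, and 7 and 11 without triple replicates 2 and 3, while it was 26 without triple replicate 1. The double libraries held between 0 and 77 counts for each of the 11 mitosis genes named by size. The fibroblast, mural and endothelial marker sums, given above, moved with this list; their part was not tested.

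The cell cycle genes homology region, a promoter element of G2 and M phase genes, was searched as TTTGAA on both strands and found in 24 of 33 mitosis members with a RefSeq promoter (15 of the 21 called), or 74.3% of their windows against 17.9% of all windows. Matches are in capitals, printed on the gene's strand for genes that rose:
Ccnb2, chr9:70421696-70421741, minus strand: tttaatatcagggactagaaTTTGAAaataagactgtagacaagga
Ube2c, chr2:164769880-164769925, plus strand: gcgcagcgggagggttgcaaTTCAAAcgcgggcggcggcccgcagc
Mki67, chr7:135716452-135716497, minus strand: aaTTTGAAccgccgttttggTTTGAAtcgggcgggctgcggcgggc
Ckap2l, chr2:129297217-129297262, minus strand: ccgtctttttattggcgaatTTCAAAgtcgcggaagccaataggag

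Cyclins and a ubiquitin enzyme that acts on them were among the mitosis genes that rose. Ccnb2, a cyclin that drives entry into mitosis, was at 1.17, 0.451 and 2.79 CPM in the double and at 8.48, 24.9 and 29.7 CPM in the triple libraries (log2 fold change 3.72 ± 0.71, adjusted p = 0.00824). Ccnb1 was at 0.848, 1.58 and 0.995 CPM against 9.54, 14.3 and 8.54 CPM (log2 fold change 3.29 ± 0.52, adjusted p = 0.00253), and Ccna2, which serves S phase and G2, at 2.65, 2.93 and 3.83 CPM against 16.2, 42.9 and 23.9 CPM (log2 fold change 3.12 ± 0.56). Ube2c, the E2 enzyme of the anaphase-promoting complex, was at 1.64, 0.902 and 1.59 CPM against 12.6, 20.4 and 14.2 CPM (log2 fold change 3.45 ± 0.43, adjusted p = 0.000311) and was called in every alternative run for it. Each of these genes had no overlap between the groups, which the rule for naming genes by size required. The 3 cyclins lost their calls with limma-voom, and Ccnb2 also without double replicate 1 or 2 (adjusted p up to 0.0606) and in the 8 libraries with a low mitochondrial share (0.0805).

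Mki67 (chromosome 7, 135689784 to 135716361), the nuclear antigen by which cycling cells are stained, was at 1.27, 2.14 and 1.19 CPM in the double and at 8.48, 14.05 and 21.98 CPM in the triple libraries (log2 fold change 3.34 ± 0.65, adjusted p = 0.00994), and its call was lost without double replicate 1 or 3 or triple replicate 3 (up to 0.0689). Birc5, or survivin, Anln, which builds the contractile ring, and Nusap1 and Prc1, which bundle spindle microtubules, rose by log2 changes of 2.98, 3.24, 2.87 and 2.87, and Shcbp1 and Ckap2l by 3.18 and 2.97. Each of these 6 lost its call in 3 or 4 of the 6 fits that left out 1 library, never without triple replicate 1, at adjusted p-values up to 0.0964 (Nusap1, without triple replicate 2). Of 34 DNA replication genes, 1 rose (2.94%), near the 1.91% of all genes called higher, with a list median of 0.50. It was Tk1, thymidine kinase, at 2.70, 3.49 and 3.73 CPM against 13.99, 6.80 and 9.38 CPM (log2 fold change 1.61 ± 0.30, adjusted p = 0.00824, or 0.0606 without double replicate 1).

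**Figure D3:**
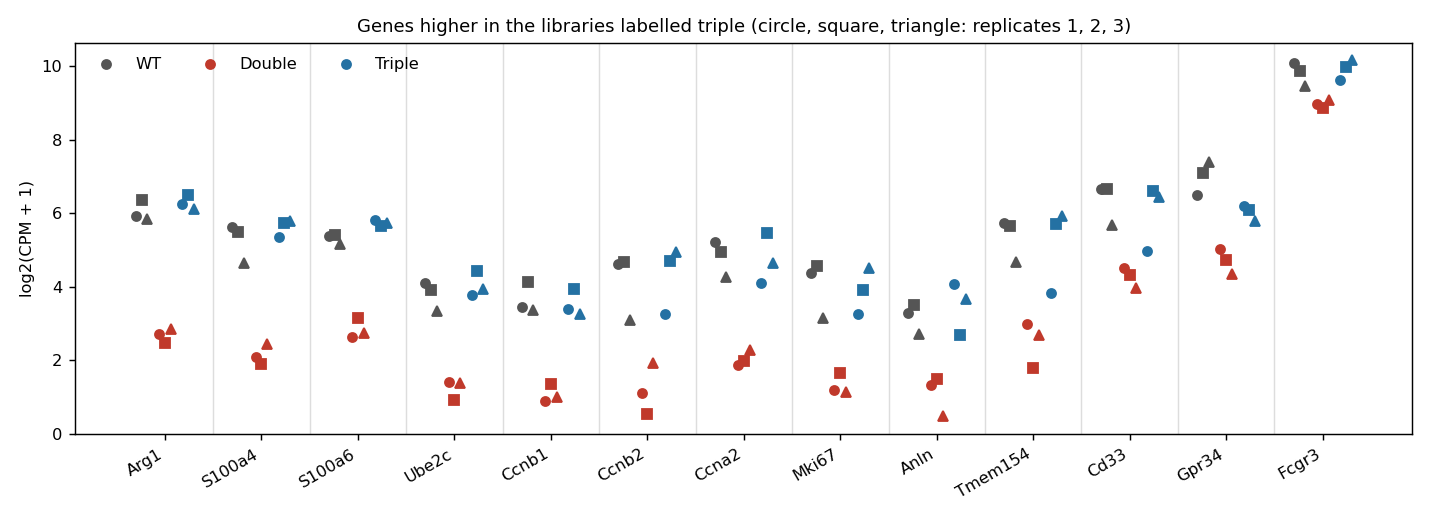
Levels on a log2(CPM + 1) axis for genes called higher in the libraries labelled triple, with 3 libraries each of WT (grey), double (red) and triple (blue). The double libraries lie below every triple library in each gene shown, which for the genes named by size was a condition of naming. Triple replicate 1 (circle) is the lowest triple library for S100a4, Ube2c, Ccnb2, Ccna2, Mki67, Tmem154, Cd33 and Fcgr3.

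Among the genes named by size that are not in the mitosis list, Arg1 (chromosome 10, 24915221 to 24927484) led. Arginase 1 breaks arginine into ornithine and urea and marks alternatively activated macrophages. Arg1 was at 5.57, 4.51 and 6.27 CPM in the double and at 75.1, 90.0 and 68.1 CPM in the triple libraries. This is a log2 change of 3.81 ± 0.62 (SE), at an adjusted p of 0.00369. The groups were far apart, and a lack of overlap was required by the rule for naming genes by size. The call held whichever of the 6 libraries was left out and was lost with limma-voom. Sat1, which acetylates polyamines made from ornithine, was at 499, 499 and 549 CPM against 873, 893 and 954 CPM (log2 fold change 0.81 ± 0.17). With it, 2 of 16 genes of arginine and polyamine metabolism rose, against 1.91% of all genes called higher. The Sat1 call was lost without double replicate 1 or 2 or triple replicate 2 or 3 (adjusted p up to 0.0689).

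S100a4 and S100a6, calcium-binding proteins of motile and growing cells, rose together. S100a4 was at 3.29, 2.71 and 4.38 CPM in the double and at 39.7, 52.6 and 54.5 CPM in the triple libraries (log2 fold change 3.79 ± 0.50, adjusted p = 0.000487). S100a6 was at 5.14, 7.89 and 5.63 CPM against 55.0, 49.5 and 52.2 CPM (log2 fold change 3.09 ± 0.34, adjusted p = 0.000113). Both were called in every alternative run for them. Tmem154, a membrane protein of unclear role, was at 6.89, 2.48 and 5.38 CPM against 13.2, 51.6 and 59.9 CPM (log2 fold change 3.03 ± 0.48, adjusted p = 0.00243). In the 8 libraries with a low mitochondrial share its log2 change was 1.37 and its adjusted p 0.121, and the call was also lost with limma-voom.

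Of 32 homeostatic microglia genes, 5 rose and none fell, against 1.91% and 0.647% of all genes, with a list median of 0.21. Gpr34, a lysophosphatidylserine receptor, was at 31.7, 25.5 and 19.4 CPM in the double and at 72.9, 67.0 and 54.4 CPM in the triple libraries (log2 fold change 1.34 ± 0.26, adjusted p = 0.00863). Cd33, a sialic acid receptor, was at 21.7, 18.8 and 14.7 CPM against 30.5, 96.4 and 85.7 CPM (log2 fold change 1.95 ± 0.37), with triple replicate 1 near the double libraries. Cx3cr1, the fractalkine receptor, was at 293, 262 and 349 CPM against 521, 556 and 484 CPM, and its call was lost whichever library was left out (adjusted p up to 0.169). Selplg and P2ry13 rose by log2 changes of 0.74 and 1.47, calls lost without any 1 library but triple replicate 1 (up to 0.186). The Gpr34 call was lost without double replicate 3 (0.054) and the Cd33 call without double replicate 3 or triple replicate 2 or 3 (up to 0.0561).

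Of 26 complement and phagocytic receptor genes 4 rose and none fell, with a median of 0.30; the shares of all genes to set beside this and the next counts are 1.91% called higher and 0.647% called lower. Fcgr3, an activating receptor for immunoglobulin G, was at 497, 460 and 535 CPM in the double and at 783, 1010 and 1139 CPM in the triple libraries (log2 fold change 0.97 ± 0.17, adjusted p = 0.00543). Msr1, a scavenger receptor, was at 410, 420 and 431 CPM against 563, 798 and 648 CPM (log2 fold change 0.67 ± 0.13). Itgam, the CD11b integrin, and Fcgr2b, the inhibitory immunoglobulin receptor, rose by 0.83 and 1.26 on the log2 scale. Of 30 disease-associated microglia genes 3 rose, Ch25h, Cst7 and Ank, at log2 changes of 1.58, 1.46 and 0.53. Of 21 antigen presentation genes 1 fell, Cd274, which encodes PD-L1, at 33.3, 36.3 and 31.5 CPM against 12.4, 15.7 and 19.2 CPM (log2 fold change -1.09 ± 0.25). Of the genes in this paragraph Fcgr3 alone kept its call whichever library was left out; the others lost it without 2 to 5 of the libraries in turn, at adjusted p-values up to 0.215 (Fcgr2b, without triple replicate 3).

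Of 34 cytosolic ribosomal protein genes, 11 rose and none fell, against 1.91% and 0.647% of all genes. A log2 change above 0 was seen for 33, against 50.3% of all genes, and the median was 0.33. Rpl32 was at 205, 157 and 215 CPM in the double and at 299, 291 and 301 CPM in the triple libraries (log2 fold change 0.62 ± 0.11, adjusted p = 0.0068). None of the 11 reached a log2 change of 1, and 1 to 5 were called when a library other than triple replicate 1 was left out. Ndrg1, a stress-induced gene of the hypoxia list, was at 5.14, 5.64 and 5.92 CPM against 22.4, 30.3 and 35.5 CPM (log2 fold change 2.40 ± 0.51), and with Pdk1, which limits pyruvate entry into mitochondria, made 2 higher calls of 30, both lost without any 1 library but triple replicate 1 (adjusted p up to 0.182). None of 37 nuclear-encoded oxidative phosphorylation genes was called, beside 2.56% of all genes called in either direction. Of the 13 mitochondrially encoded ones mt-Nd3 rose, with 0, 0 and 8 counts in the double and 43, 97 and 142 counts in the triple libraries (adjusted p = 0.00543), beside mitochondrial shares that also differ between the triple libraries.

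**Figure D4:**
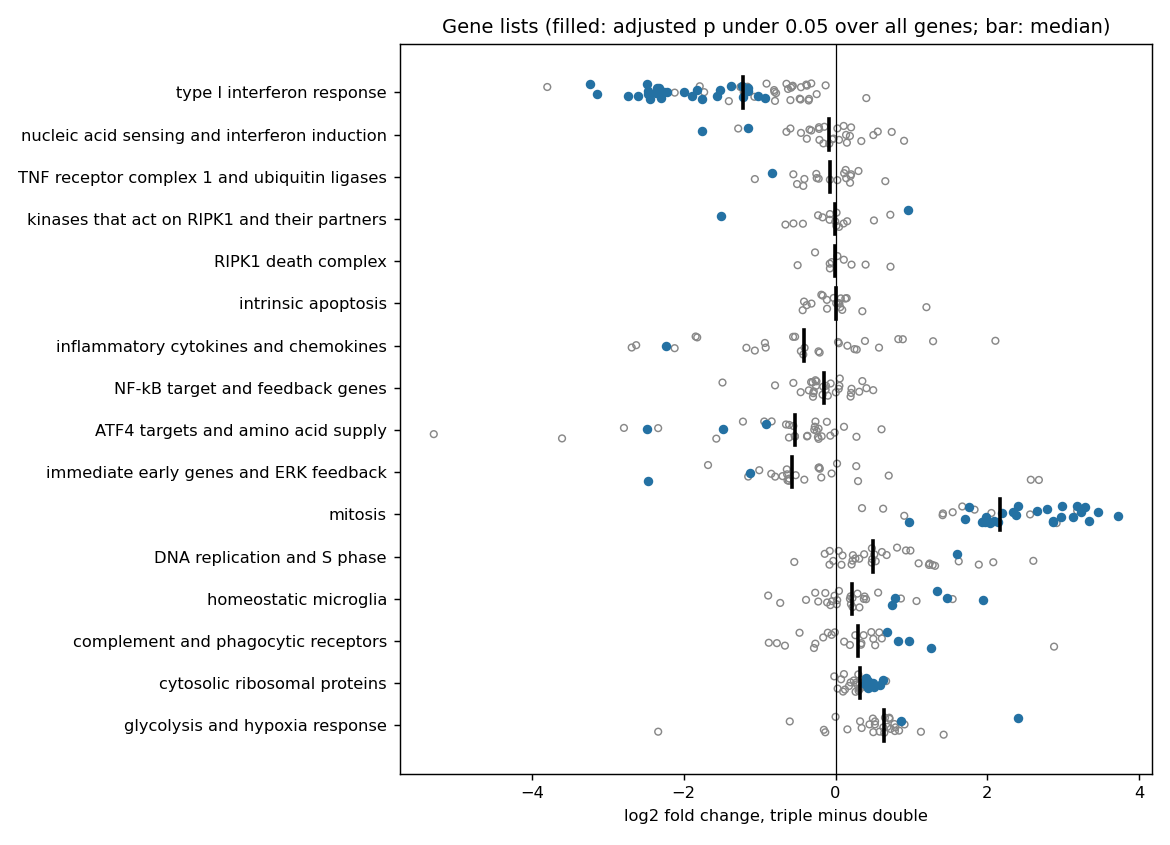
Log2 fold change, triple minus double, for each tested member of 16 gene lists (filled, adjusted p under 0.05; open, not called; bar, list median). Interferon genes lie to the left of 0 with 28 of 59 called and mitosis genes to the right with 26 of 40 called. The RIPK1 death complex and NF-kB lists have no called member, which in lists of their size is near the 2.56% of all genes called.

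Levels in the WT libraries were set beside the double and triple libraries. These comparisons share libraries with the one above. Against WT, the libraries labelled triple had 0 called genes of 13447 by edgeR (1085 genes at an unadjusted p under 0.05), with 75 called by DESeq2 and 0 by limma-voom, while the double libraries had 864 (6.43%), 311 higher (2.31%) and 553 lower (4.11%). For the interferon list the median log2 change against WT was 1.13 in the double and 0.03 in the triple libraries, and for the mitosis list -2.28 and -0.02. Mx1 was at 1.20, 0.530 and 2.38 CPM in WT, and its log2 change against WT was 3.62 in the double and 0.48 in the triple libraries. Arg1 was at 59.6, 81.4 and 56.0 CPM in WT, with log2 changes of -3.57 and 0.24. Gpr34, at 89.8, 136 and 167 CPM in WT, had log2 changes of -2.36 and -1.02 (adjusted p = 0.27 for the latter).

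Whether the labelled D138N alleles went with the same change in the absence of the Tak1 allele was asked by a second contrast, Tbk1+/-;Ripk1 D138N/D138N against Tbk1+/-, which shares no library with the first. It had 72 called genes (0.535%), 38 higher (0.283%) and 34 lower (0.253%), and the 2 contrasts differ in the number of D138N alleles, 1 against 2. The difference between the contrasts, tested in the same fit, was called for 523 genes (3.89%), 336 higher (2.5%) and 187 lower (1.39%). For the interferon list the median was -1.21 with and 0.36 without the Tak1 allele, and the difference was called lower for 27 members. For the mitosis list the medians were 2.17 and -1.06, and the difference was called higher for 33. Mki67 changed by 3.34 on the log2 scale in one contrast and by -1.78 ± 0.56 (SE, adjusted p = 0.14) in the other. Genes named by size in the first contrast were chosen on part of this difference, so their own differences are larger by that choice. Across genes the 2 sets of changes had a correlation of -0.0954 over 13447 genes, which are not independent replicates. Tbk1+/-;Ripk1 D138N/D138N replicates 1 and 3 also had Tbk1 at 130 and 131 CPM, near WT, against 54.9 CPM in replicate 2, and without both the difference was called for 49 genes, 27 higher and 22 lower. A covariate for the mitochondrial share left 16 called.

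**Figure D5:**
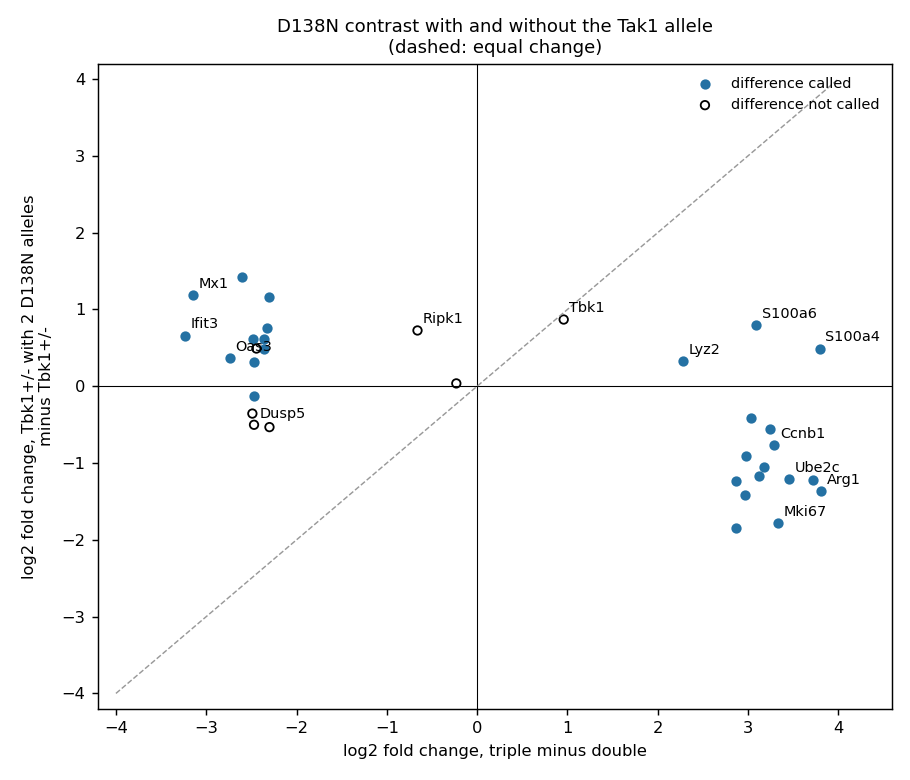
Log2 fold change of the 34 genes named by size or as label checks, in the triple minus double contrast (horizontal) and in the contrast of 2 D138N alleles against none on the Tbk1+/- background (vertical). Filled points mark the 27 genes with a called difference between the contrasts, and the interferon genes at the left and mitosis genes at the right lie away from the dashed line of equal change.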

How the data were processed

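RNA of 18 microglia libraries was made into cDNA by Smart-seq2 with oligo(dT) priming (1 ng RNA, 12 PCR cycles, 0.3 ng cDNA) and read as paired 50-base reads, per the labels' protocols; this chemistry marks no strand. The authors aligned reads to mm10 with STAR and counted with featureCounts, per the submitters' processing notes, while the labels' protocol names RSEM; versions, annotation and strand setting are not given in the sources used here. The deposited values are whole-number counts, with no normalization. Symbols and coordinates came from GENCODE M21 (GRCm38). The filter was filterByExpr, grouped by genotype (6 of them); libraries were scaled by TMM and fitted with edgeR 4.0.16 (quasi-likelihood, robust, R 4.3.3) on all 18 libraries. SE is the log2 fold change divided by the square root of F. Named were the 15 largest called changes in each direction (mean of at least 5 CPM, no overlap), up to 6 called members of each of 40 lists or, with none called, up to 3 by unadjusted p, and Tbk1, Map3k7, Ripk1, Lyz2 and the kinase list; predicted names (8 called higher, 0 lower) were left out of naming only. The members and lists were chosen with earlier results of these data known. The fit was also run on simulated counts, with the same spread in every genotype for each gene and no difference in mitochondrial share. That run does not bear on the calls made here. Alternatives were DESeq2 1.42.0, limma-voom (limma 3.58.1), other filters and scaling, covariates, the replicate number as a block and leaving out each library. Counts come from amplified cDNA without molecular identifiers. Results for some genes are not reported here.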

Additional observations from a re-analysis of the deposited data

Results flagged for a closer look

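The change that went with the labelled D138N allele was compared between the background with the Tak1 allele (triple minus double) and the one without it (Tbk1+/-;Ripk1 D138N/D138N minus Tbk1+/-). The difference was called by edgeR's interaction-type contrast for 523 genes. It was called for 16 with a covariate for the mitochondrial share and for 49 without Tbk1+/-;Ripk1 D138N/D138N replicates 1 and 3. Those 2 libraries had Tbk1 near the WT level and mitochondrial shares of 0.451% and 0.449%. The share was 1.57% in replicate 2 of that genotype and 1.82% to 2.20% in the Tbk1+/- libraries, and its part in the difference was not tested. Of the 34 genes named by size or as label checks, 27 had a called difference, with adjusted p-values between 0.000673 and 0.028. These genes were named by their size in one of the 2 contrasts, and the number of D138N alleles differs between the contrasts.

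The difference, in log2 units, was above 0 for 16 genes. Among mitosis genes it was 5.12 for Mki67, 4.94 for Ccnb2, 4.72 for Nusap1, 4.66 for Ube2c, 4.38 for Ckap2l, 4.30 for Ccna2, 4.24 for Shcbp1, 4.10 for Prc1, 4.06 for Ccnb1, 3.89 for Birc5 and 3.79 for Anln. It was 5.18 for Arg1, 3.44 for Tmem154, 3.30 for S100a4, 2.29 for S100a6 and 1.95 for Lyz2.

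For 11 genes, all of them known interferon-induced genes, the difference was below 0. It was -4.34 for Mx1, -4.03 for Ifit3b, -3.89 for Ifit3, -3.46 for Oas2, -3.11 for Oas3, -3.09 for Ifit1, -3.09 for Zbp1, -2.98 for Usp18, -2.85 for Oas1g, -2.79 for Rsad2 and -2.34 for Phf11d. No difference was called for Tbk1, Map3k7, Ripk1, Trib3, Dusp5, Ifit2 and Gbp3.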

How the results depend on the processing

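Among the 161 genes followed singly, none called between triple and double libraries changed direction under any of the alternatives run. Other genes and the other contrasts were not checked for direction. Against 344 calls between triple and double libraries, DESeq2 gave 739, no low-count filter 864, a fit limited to the 6 libraries 578, a covariate of Y-linked level 739 and a log2 fold change of at least 1 gave 192, while limma-voom gave 244 and a mitochondrial covariate 281. Leaving out 1 library gave 106 to 476. The higher and lower calls were 135 and 109 with limma-voom, 340 and 238 in the fit limited to 6 libraries, 158 and 121 in the 8 libraries with a low mitochondrial share, which were chosen after seeing the data, and 522 and 342 without a filter, against 257 and 87 as reported. With the replicate number as a block there were 338 calls for this comparison and 495 for the difference of D138N contrasts; same-numbered libraries deviated with correlations of -0.024, 0.0017 and 0.014, so the numbers gave no sign of pairing. That difference, 523 as reported, was 1069 with DESeq2, 1254 without a filter, 16 with the mitochondrial covariate, 49 without Tbk1+/-;Ripk1 D138N/D138N replicates 1 and 3 together, and 190 to 1016 with 1 library left out; it could not be run on the 8 libraries. The triple libraries against WT gave 75 calls with DESeq2 and 193 without a filter against 0. The cause of these shifts was not tested. Of the 15 genes named as higher 7, and of the 15 named as lower 6, stayed called whichever of the 6 libraries was left out. Double replicate 2, with 8016559 counts, sets the depth limit: a count of 0 there allows up to 0.374 counts in 1e+06, for counting error only.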

Other observations

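Several further groups held genes called between the libraries labelled triple and the double libraries; these lists were chosen after the values were seen, so their counts are a description, beside 1.91% of all genes called higher and 0.647% called lower. Of 15 leukotriene and prostaglandin enzymes 4 rose. Alox5ap, which presents arachidonic acid to 5-lipoxygenase, was at 21.7, 19.2 and 28.97 CPM in the double and at 82.9, 125 and 127 CPM in the triple libraries (log2 fold change 2.26 ± 0.33, SE). Hpgd, which inactivates prostaglandins, was at 312, 342 and 245 CPM against 677, 696 and 729 CPM, and Alox5 and Lta4h also rose. Alox5 lost its call in 4 and Lta4h in 5 of the 6 fits that left out 1 library (adjusted p up to 0.103 and 0.185), both in the 8 libraries with a low mitochondrial share (0.318 and 0.351), Alox5 with limma-voom, and Lta4h in 9 of 17 alternatives in all. Of 7 genes of the phagocyte NADPH oxidase, Cybb, Ncf1 and Rac2 rose; Ncf1, its organizer subunit, was at 126, 128 and 133 CPM against 219, 227 and 271 CPM. Rac2 lost its call in all 6 such fits (adjusted p up to 0.122) and with the mitochondrial covariate (0.0608), and Cybb in 4 of the 6 (up to 0.0764).

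Of 25 lysosomal glycosidases and sulfatases 9 rose and none fell. Glb1, the beta-galactosidase, was at 91.5, 85.7 and 101 CPM in the double and at 158, 220 and 237 CPM in the triple libraries (log2 fold change 1.15 ± 0.15), and Gm2a, an activator of ganglioside breakdown, at 100.1, 113 and 105 CPM against 192, 200.1 and 184 CPM. Of 29 translation initiation and elongation factors 7 rose, among them Eef1a1 at 2425, 2184 and 2576 CPM against 3526, 3778 and 3910 CPM. Among splicing and nuclear RNA-binding genes, Pspc1, Ddx39b, Srsf7 and Hnrnph3 fell, by log2 changes of -1.40, -0.52, -0.76 and -1.16, and each lost its call in 3 to 5 of the 6 fits that left out 1 library. In each gene given with its CPM here the groups did not overlap. Of them Hpgd lost its call without any 1 library but triple replicate 1 (adjusted p up to 0.0856), and the others kept theirs.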
